A study of Mus musculus with 4 samples.

Results

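The genes described here are 10 neighbours on mouse chromosome 9, which in the RefSeq gene order of GRCm38.p6 read Casp1, Casp4, Casp12, Dync2h1, Dcun1d5, Tmem123, Birc2, Birc3, Cfap300 and Cep126, with other genes between them. They were chosen because their part of the chromosome was lower without Snail1, that is, they were selected on the genotype difference, which is given for them as a description only. Each of the 10 genes had 1 probe set whose only platform symbol was that gene, that is 10 of 41345 probe sets on the array, or 10 of 22180 genes. The 4 groups, all of mesenchymal stem cells (MSCs) from mouse bone marrow, were each measured on 1 Affymetrix array, namely Snail1-KO cells treated with TGF-b1 for 2 h, untreated Snail1-KO cells, Snail1-WT cells treated with TGF-b1 for 2 h and untreated Snail1-WT cells. The sources used here do not say how Snail1 was removed, which strain and dose of TGF-b1 were used, or whether each culture was from its own animal.

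The 3 caspases of the group are the inflammatory kind. Caspase-1 is activated in inflammasomes and cuts the precursors of IL-1 beta and IL-18 as well as the pore protein gasdermin D. Caspase-4, known in the mouse as caspase-11, is activated by bacterial lipopolysaccharide in the cytosol, and caspase-12 is a relative found at the endoplasmic reticulum. Birc2 and Birc3 encode the ubiquitin ligases cIAP1 and cIAP2, which act with TRAF2 at TNF receptors and keep the kinase NIK (gene Map3k14) low. Dync2h1, Cfap300 and Cep126 are genes of cilia, Dcun1d5 promotes the attachment of NEDD8 to cullins, and Tmem123 encodes porimin, a heavily glycosylated membrane protein. Snail1 (gene Snai1, on chromosome 2) is a zinc finger repressor, and TGF-b1 is a cytokine that signals through SMAD proteins.

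All values are RMA levels on a log2 scale, on which a difference of 1 is 2-fold, and levels of different probe sets are not compared. With 1 array per group no difference has a replicate check and no test was made. In such bulk samples, fewer cells that express a gene and less RNA per cell cannot be told apart. As a yardstick, the spread is the SD of a difference between 2 arrays, estimated from how far the responses of the genotypes to TGF-b1 disagreed among 500 genes of like level. It includes true disagreement and leaves out whatever both arrays of a genotype, or both treated arrays, share. For most genes of the gene lists no spread is printed, and many of their smaller values lie within 2 times it. They were named for having the largest values of their list, so small ones show little. Shares over the whole array are over the 13308 genes kept after a filter on low levels (means of at least 4.51), which all 10 genes passed. Snai1 itself measured 5.34 with TGF-b1 and 5.09 untreated in Snail1-KO cells, against 7.63 and 6.69 in Snail1-WT cells, which is the direction of the labels. Of 12 measured mesenchymal stromal markers, 10 were kept and Lepr (2.86 to 3.20) and Nt5e (4.23 to 4.62) were not. Of 15 haematopoietic and macrophage markers, 5 were kept, among them Cd68 (6.05 to 6.23) and Cd14 (5.53 to 6.59). The mean level of all 15 was 4.34 and 4.47 on the treated and untreated Snail1-KO arrays, against 4.41 and 4.37 on the Snail1-WT arrays. The pan-leukocyte gene Ptprc measured 3.78 and 3.49 in Snail1-KO cells against 3.42 and 3.15 in Snail1-WT cells. It failed the filter, so these values show little. Of the other markers not kept, Lyz2 was also higher in Snail1-KO cells with and without TGF-b1. Itgam, Fcgr1, Tyrobp, Laptm5 and Cd52 were lower in both, and Adgre1, Itgax and Spi1 differed in sign.

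In Snail1-KO cells all 10 genes were lower in both pairs of arrays, those treated with TGF-b1 and those left untreated. The median difference, Snail1-KO minus Snail1-WT, was -1.10 with TGF-b1 and -1.13 without, against -0.0024 and -0.00034 over all kept genes. With TGF-b1 6 of the 10 were at least 2-fold lower, as were 0.631% of all kept genes, and without it 6 of 10, against 0.744%. In both pairs 4 of 10 passed (Casp1, Dcun1d5, Cfap300 and Cep126), against 0.473%, and at 1.5-fold 8 of 10, against 1.65%. For 9 of the 10 both Snail1-KO arrays lay below both Snail1-WT arrays, as was so for 25.2% of all kept genes, and Casp4 was the exception. These counts follow from how the genes were chosen and are not evidence of their own.

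**Figure D1:**
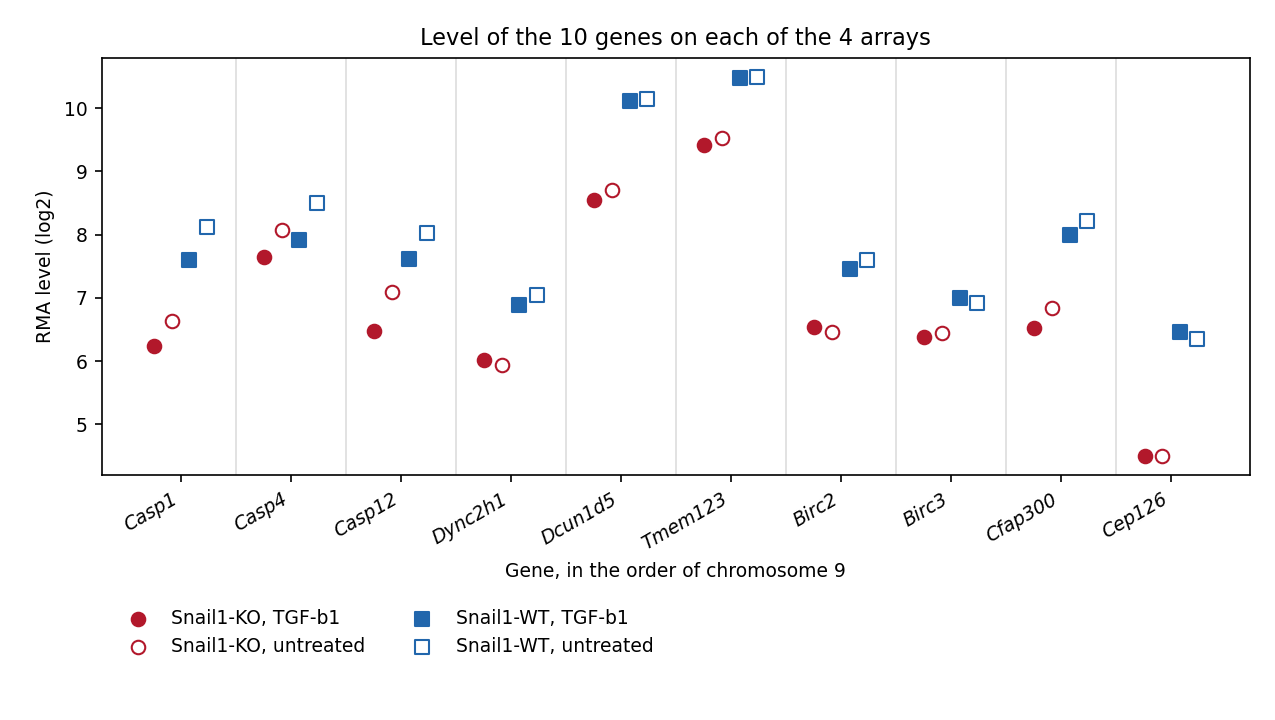
RMA level (log2, vertical axis) of each of the 10 genes on the 4 arrays, with circles for Snail1-KO and squares for Snail1-WT cells, filled for TGF-b1 and open for untreated. The Snail1-KO circles lie below the Snail1-WT squares for every gene but Casp4, whose untreated Snail1-KO value (8.07) lies above its treated Snail1-WT value (7.91).

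Casp1 differed most among the caspases. It measured 6.24 with TGF-b1 and 6.63 untreated in Snail1-KO cells, against 7.61 and 8.13 in Snail1-WT cells. It was thus 2.58-fold lower with TGF-b1 and 2.81-fold lower without (differences of -1.37 and -1.49, spread 0.14). Casp12 measured 6.47 and 7.10 in treated and untreated Snail1-KO cells, against 7.62 and 8.03 in Snail1-WT cells. Its differences were -1.15 with and -0.93 without TGF-b1 (spread 0.13), so it was 2.22-fold and 1.91-fold lower. Casp4, which lies between these genes, differed least of the 10: it measured 7.65 and 8.07 in treated and untreated Snail1-KO cells, against 7.91 and 8.51 in Snail1-WT cells. The differences were -0.26 with and -0.44 without TGF-b1 (spread 0.11).

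After 2 h of TGF-b1 the 3 caspases were lower in both genotypes, and this comparison had no part in choosing them. Casp1 was lower by 0.39 in Snail1-KO and by 0.52 in Snail1-WT cells, Casp4 by 0.42 and 0.59, and Casp12 by 0.63 and 0.41. These 3 genes lie next to each other, and they were the only ones of the 10 whose responses passed 2 times the spread in both genotypes, as 11.1% of all kept genes did in either direction. At a threshold of 1.3-fold lower in both genotypes, chosen after the values were seen, the same 3 of 10 passed, against 2.31% of all kept genes. None of the 10 was 2-fold lower after TGF-b1 in either genotype (against 0.308% in Snail1-KO and 0.271% in Snail1-WT cells), and none was 2-fold higher (against 0.999% and 0.714%). At 1.5-fold, 1 of 10 was lower in Snail1-KO cells (Casp12, 1.54-fold, against 1.83% of all kept genes) and 1 of 10 in Snail1-WT cells (Casp4, 1.51-fold, against 1.89%).

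The 250 bases before the starts of these 3 neighbouring genes are shown because the genes moved together after TGF-b1. They are from RefSeq, build GRCm38.p6, plus strand: Casp1 at chr9:5298267-5298516, Casp4 at chr9:5308599-5308848 (the upstream of its 2 listed starts) and Casp12 at chr9:5345226-5345475. Capitals would mark the motifs searched on both strands, namely the Snail E-box CAGGTG, the SMAD palindrome GTCTAGAC and GAAANNGAA, the core of the interferon-stimulated response element. None of the 3 windows holds any of these letters, so all are in lower case.
Casp1: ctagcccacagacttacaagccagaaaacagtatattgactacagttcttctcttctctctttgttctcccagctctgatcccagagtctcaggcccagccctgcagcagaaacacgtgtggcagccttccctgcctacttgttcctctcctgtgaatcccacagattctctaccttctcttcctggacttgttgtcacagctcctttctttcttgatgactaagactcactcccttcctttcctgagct
Casp4: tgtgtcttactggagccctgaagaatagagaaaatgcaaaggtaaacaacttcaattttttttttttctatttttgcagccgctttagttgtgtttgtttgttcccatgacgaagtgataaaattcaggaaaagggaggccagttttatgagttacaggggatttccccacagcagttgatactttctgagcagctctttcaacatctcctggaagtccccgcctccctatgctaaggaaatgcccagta
Casp12: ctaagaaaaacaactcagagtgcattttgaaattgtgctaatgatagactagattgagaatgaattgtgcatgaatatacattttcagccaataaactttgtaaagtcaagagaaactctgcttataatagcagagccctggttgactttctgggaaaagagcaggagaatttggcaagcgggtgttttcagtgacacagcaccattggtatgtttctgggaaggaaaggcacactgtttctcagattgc

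Across the 15 windows listed for the 10 genes, the E-box was found in 1, before a second start of Dcun1d5, against 17.2% of 32851 windows in the whole table. The interferon element core was found in 1, before Cfap300, against 7.13%. The SMAD palindrome was found in 0, against 0.167%. A match is a description of letters and not a bound site, and its absence from a window says nothing of more distant sequence.

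**Figure D2:**
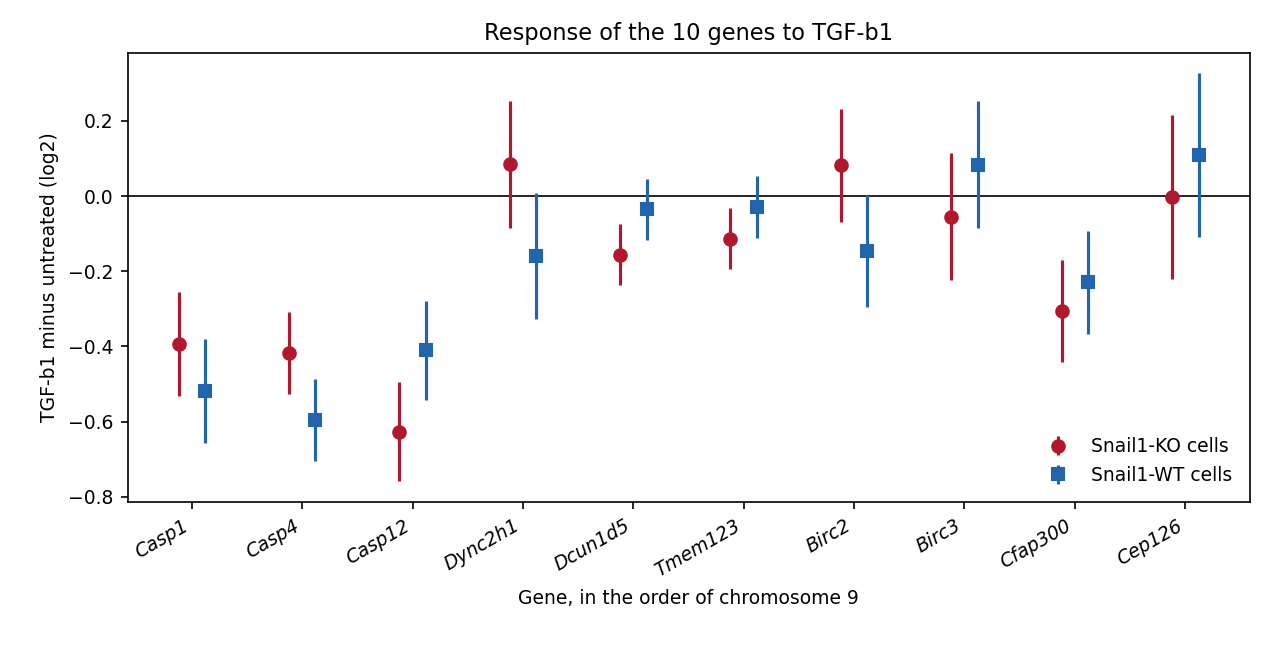
Response to TGF-b1 (treated minus untreated, log2, vertical axis) of the 10 genes in chromosome order, with circles for Snail1-KO and squares for Snail1-WT cells, each with a bar of 1 spread on either side. Casp1, Casp4 and Casp12, at the left, lie between -0.63 and -0.39, and the other 7 genes lie within 0.31 of 0.

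Caspase and inflammasome genes encoded elsewhere were set beside these. Of 5 other caspase genes measured, none was 2-fold apart in any comparison, and their median was -0.05 with and -0.11 without TGF-b1. Casp6, an executioner caspase, differed by -0.29 and -0.25, Casp8, the initiator caspase of death receptors, by 0.13 and 0.15, and Casp2 by -0.02 and -0.11. Of 21 inflammasome and pyroptosis genes, 9 were kept and the median was 0.06 with and 0.12 without TGF-b1. Il18, a cytokine processed by caspase-1, was higher in Snail1-KO cells by 0.62 and 0.57, and Gsdme, a gasdermin, by 0.26 and 0.12. Txnip, a thioredoxin inhibitor, differed by -0.49 and -0.34, and the ATP-gated channel gene P2rx7 by -0.21 and -0.30. The differences of Gsdme and P2rx7 lay within 2 times their spreads (0.18 and 0.23). Naip2, a sensor of bacterial secretion systems, was the single member 2-fold apart between genotypes, at 1.97 with TGF-b1 and 0.76 without. It was named after its values were seen and failed the filter, at 2.97 and 3.57 in treated and untreated Snail1-WT cells, so the size is uncertain.

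After TGF-b1 the 21 measured inflammasome genes had a median response of -0.02 in Snail1-KO and 0.01 in Snail1-WT cells. Over the 9 kept genes alone, the median was -0.05 in Snail1-KO and -0.20 in Snail1-WT cells. Txnip was lower by 1.09 in Snail1-KO and 0.94 in Snail1-WT cells and Il18 by 0.33 and 0.38, while Nek7, a kinase that binds NLRP3, was higher by 0.13 and 0.15. ER stress genes, set beside Casp12, had medians above 0: the median of 14 was 0.24 with and 0.19 without TGF-b1, with the ER stress kinase gene Eif2ak3 at 0.64 and 0.67, Trib3 at 0.63 and 0.43, Herpud1 at 0.60 and 0.36 and the stress factor Ddit3 at 0.39 and 0.39. Ddit3 was lower after TGF-b1 by 0.77 in both genotypes and the chaperone gene Dnajb9 by 0.60 in Snail1-KO and 0.53 in Snail1-WT cells. Xbp1 and the ER chaperone gene Hspa5 were higher, by 0.42 and 0.31 in Snail1-KO and by 0.28 each in Snail1-WT cells.

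The paralogs Birc2 and Birc3, which lie side by side, differed in size. Birc2 measured 6.54 with TGF-b1 and 6.46 untreated in Snail1-KO cells, against 7.46 and 7.61 in Snail1-WT cells, a difference of -0.92 with and -1.15 without TGF-b1 (spread 0.15). Birc3 measured 6.38 and 6.44 in treated and untreated Snail1-KO cells, against 6.999 and 6.916 in Snail1-WT cells, a difference of -0.62 and -0.48 (spread 0.17). The Snail1-KO arrays lay below the Snail1-WT arrays for both genes, 1.89-fold and 2.22-fold for Birc2 and 1.53-fold and 1.39-fold for Birc3. After TGF-b1 both lay within 1 spread of the untreated level: Birc2 responded by 0.08 in Snail1-KO and -0.15 in Snail1-WT cells, and Birc3 by -0.06 and 0.08.

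Other inhibitor of apoptosis genes and their antagonists, 8 measured and 7 kept, had a median genotype difference of -0.16 with and -0.03 without TGF-b1. Xaf1, an antagonist of XIAP, was the only member 2-fold apart, higher in Snail1-KO cells by 1.13 and 1.21. It measured 7.42 with TGF-b1 and 7.86 untreated in Snail1-KO cells, against 6.29 and 6.65 in Snail1-WT cells. Xiap differed by 0.24 and 0.19, and the mitochondrial antagonists Htra2 and Diablo by -0.32 and -0.33 and by -0.40 and -0.25. After TGF-b1 Xaf1 was lower by 0.44 in Snail1-KO and 0.36 in Snail1-WT cells, Birc5, the survivin gene of dividing cells, by 0.21 and 0.17, and Birc6 was higher by 0.25 and 0.06.

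Among 26 measured genes of the TNF receptor complex and NF-kB, in which the cIAP proteins work, the median genotype difference was 0.16 with and 0.12 without TGF-b1. Tnfrsf12a, the receptor for the cytokine TWEAK, was the single member 2-fold lower, by 1.12 without TGF-b1, and it was lower by 0.57 with it. Ripk3, the necroptosis kinase gene, was higher by 0.57 and 0.67 with and without TGF-b1, Ikbkg by 0.41 and 0.35, and Ltbr differed by -0.27 and -0.37. After TGF-b1 the TNF receptor gene Tnfrsf1b was higher by 1.33 in Snail1-KO and 1.09 in Snail1-WT cells and Tnfrsf12a by 1.16 and 0.61. Map3k14, encoding NIK, was higher by 0.64 and 0.43, and the NF-kB inhibitor gene Tnfaip3 by 0.91 and 0.36. Between genotypes Map3k14 differed by 0.21 with and -0.006 without TGF-b1 (spread 0.18), and NIK protein was not measured. The responses of Birc3 itself were those given above, -0.06 and 0.08.

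Dync2h1 and Dcun1d5 sit head to head: the listed start of Dync2h1 and the upstream of the 2 listed starts of Dcun1d5 are 468 bases apart, and from these starts the genes are read in opposite directions and overlap. Where and on which strand their probes lie is unknown here, so how far each value is free of the other gene was not tested. Dync2h1, the heavy chain of the dynein that carries cargo back from the tip of the cilium, measured 6.02 with TGF-b1 and 5.93 untreated in Snail1-KO cells, against 6.88 and 7.04 in Snail1-WT cells. Dcun1d5 measured 8.56 and 8.71 in treated and untreated Snail1-KO cells, against 10.11 and 10.15 in Snail1-WT cells. Dync2h1 was thus 1.82-fold lower with and 2.16-fold lower without TGF-b1 (-0.87 and -1.11, spread 0.17), and Dcun1d5 2.94-fold and 2.71-fold lower (-1.56 and -1.44, spread 0.08). Neither moved by more than 2 times its spread after TGF-b1, with responses of 0.08 in Snail1-KO and -0.16 in Snail1-WT cells for Dync2h1 and of -0.16 and -0.04 for Dcun1d5.

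The second start of Dcun1d5 is shown because it holds the only Snail E-box found in these windows. It is from RefSeq, build GRCm38.p6, chr9:7184255-7184504, plus strand, and the capitals mark CACCTG, the E-box as read on the other strand, whose left base lies 71 bases before the start.
Dcun1d5: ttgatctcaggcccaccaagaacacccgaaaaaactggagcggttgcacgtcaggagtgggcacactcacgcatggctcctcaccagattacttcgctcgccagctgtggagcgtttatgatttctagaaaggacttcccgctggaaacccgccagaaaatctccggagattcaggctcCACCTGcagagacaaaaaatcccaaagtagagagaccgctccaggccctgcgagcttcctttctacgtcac

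The genes of partner proteins had medians near or above 0. Of 32 measured dynein-2 and intraflagellar transport genes, none was 2-fold apart, and the median genotype difference was 0.20 with and 0.15 without TGF-b1. Dync2li1, the light intermediate chain of the same dynein, was higher in Snail1-KO cells by 0.56 and 0.49, Ttc21b, a transport particle subunit, by 0.51 in both, Dynlt3 by 0.62 and 0.73 and Kifap3, of the kinesin that moves the other way, by 0.57 and 0.46. After TGF-b1 Ift74 was lower by 0.34 in Snail1-KO and 0.58 in Snail1-WT cells, Ift46 by 0.25 and 0.48 and Ift20 by 0.32 and 0.24. The 17 measured neddylation and cullin genes had medians of -0.02 with and -0.08 without TGF-b1. Among them Dcun1d4, a relative of Dcun1d5, differed by -0.60 and -0.35, Dcun1d1 by -0.27 and -0.25, Cand1, which exchanges cullin adaptors, by -0.19 and -0.20 and Uba3, a subunit of the NEDD8-activating enzyme, by 0.33 and 0.38. The NEDD8 protease gene Senp8 was lower after TGF-b1 by 0.30 in Snail1-KO and 0.74 in Snail1-WT cells.

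Cfap300, which is needed to assemble the dynein arms of motile cilia, measured 6.53 with TGF-b1 and 6.84 untreated in Snail1-KO cells, against 7.99 and 8.22 in Snail1-WT cells. Its differences of -1.46 and -1.39 (spread 0.14) make it 2.76-fold lower with and 2.62-fold lower without TGF-b1. It was lower after TGF-b1 by 0.31 in Snail1-KO cells, over 2 times the spread, and by 0.23 in Snail1-WT cells, under 2 times the spread. Cep126, a protein of the centrosome and the base of the cilium, measured 4.50 on both Snail1-KO arrays, against 6.46 with TGF-b1 and 6.35 untreated in Snail1-WT cells. Its differences of -1.96 and -1.85 were the largest of the 10 genes in both pairs (spread 0.22), but the Snail1-KO level lies under 4.51, the lowest mean kept, so the size is uncertain. Its responses to TGF-b1 were -0.0028 in Snail1-KO and 0.11 in Snail1-WT cells.

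The window before Cfap300 is shown because it holds the only interferon element core found in the 15 windows. It is from RefSeq, build GRCm38.p6, chr9:8042876-8043125, minus strand, and the capitals mark TTCCATTTC, the element as read on the other strand, whose left base lies 112 bases before the start.
Cfap300: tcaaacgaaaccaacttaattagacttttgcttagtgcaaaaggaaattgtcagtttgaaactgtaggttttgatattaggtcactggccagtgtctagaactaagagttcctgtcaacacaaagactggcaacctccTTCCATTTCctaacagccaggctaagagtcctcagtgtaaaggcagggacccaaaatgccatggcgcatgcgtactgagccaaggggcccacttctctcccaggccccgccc

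Genes of the ciliary base and motile cilia elsewhere, 21 measured and 14 kept, had a median genotype difference of 0.03 with and 0.09 without TGF-b1, and none was 2-fold apart. Bbs4, of the complex that carries membrane proteins into cilia, was higher by 0.44 in both pairs, Cc2d2a, of the transition zone, by 0.36 and 0.29, Ofd1 by 0.31 and 0.16 and Bbs1 by 0.26 and 0.16. Foxj1, the master regulator of motile cilia, measured 4.78 and 4.46 in treated and untreated Snail1-KO cells, against 4.60 and 4.39 in Snail1-WT cells, close to the lowest mean kept.

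Tmem123 measured 9.42 with TGF-b1 and 9.54 untreated in Snail1-KO cells, against 10.47 and 10.50 in Snail1-WT cells. The differences of -1.05 and -0.96 (spread 0.08) are 2.07-fold and 1.95-fold. The mean of its 2 genotype differences was -1.01, and over the 10 genes this mean ran from -1.91 (Cep126) to -0.35 (Casp4). The responses of Tmem123 to TGF-b1 were -0.11 in Snail1-KO and -0.03 in Snail1-WT cells.

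The other genes between Casp1 and Arhgap42, the last gene of the stretch, were set beside the 10. Of 28 measured genes from Casp1 to Arhgap42, 16 were kept. Of the 16, 12 were 1.5-fold lower or more without Snail1 in both pairs, against 1.65% of all kept genes. The count is a description, since 10 of the 16 were chosen for this difference. Of the 6 others 4 passed, in a stretch that was itself chosen as lower. Of the 12, Mmp3 and Cep126 passed the filter only through their Snail1-WT levels. Of the 6 kept genes besides the 10, the growth factor gene Pdgfd differed by -1.55 with and -2.12 without TGF-b1, the matrix protease gene Mmp3 by -1.75 and -1.85, the coactivator gene Yap1 by -1.17 and -1.30 and Arhgap42 by -1.40 and -1.25. Mmp3 measured 3.93 and 3.96 in treated and untreated Snail1-KO cells, below the lowest mean kept, against 5.68 and 5.81 in Snail1-WT cells, so the size of its difference is uncertain. Mmp10 differed by -0.16 and -0.45 and the microRNA gene Mir1899 by 0.03 and 0.02, both with means near the lowest kept (4.62 and 4.63), so these values show little. The 12 genes that were not kept, among them Mmp12, Mmp1b, Mmp1a, Mmp8, Mmp27, Mmp20, Mmp7, Ddi1, Trpc6 and Pgr, had means of at most 4.05, below the lowest mean kept, and their median was 0.01 with and -0.16 without TGF-b1. Of these Mmp13 differed by -0.90 and -0.96.

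Beyond both ends, none of the 14 kept genes examined was 1.5-fold lower in both pairs. The stretch was chosen because it was lower without Snail1, so this follows in part from where its ends were put. The nearest 3 before Casp1 are Msantd4 (0.16 with and 0.18 without TGF-b1), Aasdhppt (-0.17 and 0.06) and Cwf19l2 (0.23 and 0.24). The nearest 3 of symbol other than a clone name after Arhgap42 are Jrkl (-0.07 and 0.49), Ccdc82 (0.50 and 0.09) and Maml2 (-0.24 and 0.04). The 4 kept genes before had a median of 0.09 with and 0.12 without TGF-b1, and the nearest 10 after had medians of 0.30 and 0.11. Over the 736 other kept genes of chromosome 9 the medians were 0.03 and 0.02, and 2.58% were 1.5-fold lower in both pairs. What sets these limits was not tested.

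**Figure D3:**
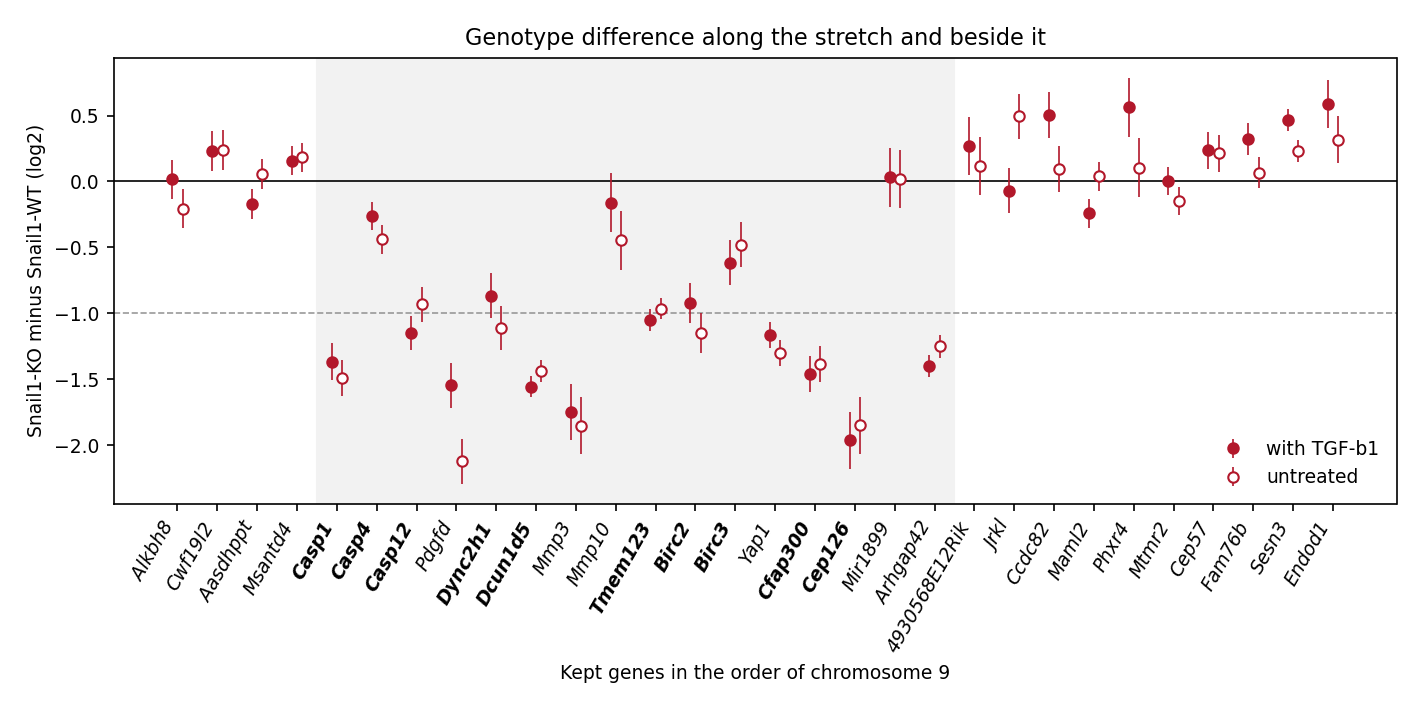
Snail1-KO minus Snail1-WT (log2, vertical axis) of the kept genes from Casp1 to Arhgap42 (shaded, the 10 genes in bold) and of kept genes on either side, in chromosome order, filled with TGF-b1 and open untreated, with bars of 1 spread. Of the shaded genes, 12 lie at or below -0.87 in both pairs, and the genes on either side lie between -0.24 and 0.59.

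The genotype difference of the 10 genes was much the same with and without TGF-b1. The Snail1-KO response minus the Snail1-WT response ran from -0.22 (Casp12) to 0.24 (Dync2h1), with a median of -0.08. For none of the 10 did it exceed 2 times its own spread, as it did for 6.67% of all kept genes, and the highest size was 1.16 times. Beside so small a share, a count of 0 among 10 genes says little. The genes were also chosen as lower in both pairs, which favours agreement between the pairs. The response medians were -0.13 in Snail1-KO and -0.15 in Snail1-WT cells, against -0.02 and -0.03 over all kept genes.

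Outside the stretch, the 5 genes whose 4 array values, centred on their mean, lay closest to the median pattern of the 10 were Crabp1, Dact1, Nid2, Fgf23 and Grb10, at Euclidean distances of 0.12 to 0.17 over 4 arrays. Crabp1, also on chromosome 9, differed by -1.01 with and -1.23 without TGF-b1, and Dact1, on chromosome 12, by -1.13 and -1.12. Nid2, on chromosome 14, differed by -1.12 and -1.04, Fgf23, on chromosome 6, by -1.12 and -1.25, and Grb10, on chromosome 11, by -1.05 and -1.04. Fgf23 lay below the lowest mean kept in Snail1-KO cells, at 4.20 with TGF-b1 and 4.47 untreated, so its size is uncertain. A likeness over 4 arrays of which 2 are low says little more than that these genes were also lower in Snail1-KO cells.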

How the data were processed

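RNA of 4 samples was hybridised to 1 Affymetrix array each, after biotin labelling with a WT PLUS kit, per the labels' protocols. The authors deposited log2 values that the submitters' processing notes credit to RMA and R 3.1.1. This method subtracts background, gives every array 1 distribution and combines probes, so a shift shared by most genes would be removed. The build and the probe positions were not given in the sources used here. Precision is limited by the number of arrays.

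The platform annotation named the genes. Of several probe sets of a gene, that of highest mean was used. The 60% of genes with the highest mean were kept for shares over all genes. No test was made with 1 array per group. The spread is the scaled median absolute deviation of the difference of responses, divided by the square root of 2, over the 500 kept genes nearest in level. It was tested on simulated data with independent noise on each array. Such data cannot check how the spread fares with true disagreement or with effects that arrays share. The genes and gene lists were chosen with earlier results of these data known. Named genes were the 10 genes, Snai1, other genes of the stretch, the nearest 3 beside each end (clone names left out), up to 4 kept genes per list with the largest genotype difference and response of 1 sign in both pairs, and 5 genes of like pattern. The lists were other caspases, inflammasome, inhibitors of apoptosis, TNF receptor and NF-kB, neddylation, intraflagellar transport, ciliary base, ER stress and markers of cell types. Promoter windows were the 250 bases before RefSeq starts. Alternatives were median centring, cyclic loess (limma 3.58.1, R 4.3.3), the mean of probe sets, a floor at the lower quartile, and other filters and thresholds. Other work used Python 3.11.15, numpy 2.4.6, pandas 2.3.3 and matplotlib 3.10.9.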

Additional observations from a re-analysis of the deposited data

Results flagged for a closer look

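For 4 of the 10 genes the response to TGF-b1 had opposite signs in the genotypes. Dync2h1 responded by 0.0841 in Snail1-KO and -0.159 in Snail1-WT cells, Birc2 by 0.0820 and -0.146, Birc3 by -0.0551 and 0.0833, and Cep126 by -0.0028 and 0.11. Each of these responses is smaller than its spread (0.17, 0.15, 0.17 and 0.22), and the differences between the genotypes were not tested. The count depends on scaling: it was 6 with median centring, which adds Dcun1d5 and Tmem123, and 3 with cyclic loess, which drops Cep126.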

How the results depend on the processing

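Under median centring and cyclic loess, all recomputed values of the 10 genes moved by less than the spread, by at most 0.06. Their counts at 2-fold did not change. The mean of probe sets and a floor at the lower quartile could not move any value of the 10 genes. Each had 1 probe set, and all their values lay above the lower quartiles of the arrays (3.61 to 3.65). The median difference of the responses, -0.08, was -0.14 with median centring, a shift of 0.06 that is below the median spread of 0.14. At a 1.5-fold threshold, the count lower in both genotype pairs was 8 in place of 4, and 1 gene each passed in the response of Snail1-KO cells (Casp12) and of Snail1-WT cells (Casp4), in place of 0. At 1.3-fold, added after the values were seen, 3 passed in both responses, in place of 0. With no filter on low levels, the share of all genes at least 2-fold lower was 0.298% in both genotype pairs and 0.0992% in both responses. No replicate block was fitted because the labels number no replicates, and an additive fit of genotype and treatment, which leaves 1 residual degree of freedom, was not run. A level near the lowest mean kept bounds how low a gene can be seen to go, which limits the values of Cep126, Mmp3, Mmp10, Mir1899 and Fgf23, among others.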

Other observations

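None of the cell type markers was 2-fold apart in any comparison. The mesenchymal stromal markers had a median genotype difference of -0.09 with and -0.25 without TGF-b1, with Pdgfra at -0.50 and -0.37, Cxcl12 at -0.33 and -0.26, Pdgfrb at -0.24 and -0.30 and Thy1 at -0.48 and -0.24, while Prrx1 (0.44 and 0.21), Col1a2 (0.32 and 0.21) and Col1a1 (0.16 and 0.14), added after their values were seen, were higher. After TGF-b1 Pdgfrb was higher by 0.69 in Snail1-KO and 0.63 in Snail1-WT cells and Cd44 by 0.55 and 0.44, while Pdgfra was lower by 0.60 and 0.47 and Prrx1 by 0.20 and 0.43. Haematopoietic and macrophage markers had a median genotype difference of -0.13 with and 0.19 without TGF-b1, with Cd14 higher in Snail1-KO cells by 0.59 and 0.42 and Csf1r at -0.55 and -0.12. Endothelial markers had medians of -0.07 and -0.03, epithelial markers of -0.15 and 0.05 and proliferation genes of -0.07 and -0.04.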
